A study of Mus musculus with 3 samples.

Results

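The 7 hyaluronidase genes of the mouse, Spam1 and Hyal1 to Hyal6, were taken by their symbols in the platform annotation from RNA levels of testis cells on 3 arrays. Of these 7 genes among 19938 named genes, 6 had a probe set of their own. Hyal1 was named only together with its neighbour Naa80, on 2 probe sets, and was kept apart. Each array held RNA of testis cells that the labels call spermatids, which are haploid male germ cells, from the testes of wild type BALB/c males aged 30 days. The arrays were Affymetrix Mouse Gene ST arrays and were numbered replicates of 1 group, with no control group, so each level could only be set against a background level. The described preparation minced and homogenised the tubules and strained the suspension, with no sorting step, and the labels do not tie the replicates to different animals, so their spread may be technical.

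Hyaluronan is a long unbranched sugar polymer of the extracellular matrix, and hyaluronidases cut it into fragments. The matrix around the ovulated egg and its cumulus cells is rich in hyaluronan, and sperm carry hyaluronidases on the head and in the acrosome with which they pass through it. Spam1, also called PH-20, and Hyal5 are the sperm enzymes of the mouse and are held to the membrane by a GPI anchor. Hyal1 is the acid enzyme of lysosomes. Hyal2 is a GPI-anchored enzyme of many somatic cells, Hyal3 is less well understood, and Hyal4 acts mainly on chondroitin sulfate. Hyal6, also listed as Hyalp1, lies beside Spam1, Hyal4 and Hyal5 on chromosome 6, while Hyal1, Hyal2 and Hyal3 lie together on chromosome 9.

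The bases before the starts of 3 neighbouring genes of chromosome 6 are shown first, because the 2 sperm forms share a run of letters there that Hyal6, whose transcript was also above background, lacks. The sequences are those of RefSeq on build GRCm38.p6, 5′ to 3′, ending just before the first annotated start of the gene, and capitals mark the run shared by Spam1 and Hyal5.
Spam1, chr6:24790938-24791187, plus strand: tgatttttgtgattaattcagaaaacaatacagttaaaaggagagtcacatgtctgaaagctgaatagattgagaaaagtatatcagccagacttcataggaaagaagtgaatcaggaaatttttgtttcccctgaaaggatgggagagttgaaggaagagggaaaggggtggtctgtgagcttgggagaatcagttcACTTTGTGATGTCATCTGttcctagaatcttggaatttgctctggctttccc
Hyal5, chr6:24857747-24857936, plus strand: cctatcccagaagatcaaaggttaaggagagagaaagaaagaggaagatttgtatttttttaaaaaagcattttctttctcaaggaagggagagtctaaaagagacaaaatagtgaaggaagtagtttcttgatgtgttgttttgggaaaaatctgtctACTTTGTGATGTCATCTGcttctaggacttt
Hyal6, chr6:24732995-24733244, plus strand: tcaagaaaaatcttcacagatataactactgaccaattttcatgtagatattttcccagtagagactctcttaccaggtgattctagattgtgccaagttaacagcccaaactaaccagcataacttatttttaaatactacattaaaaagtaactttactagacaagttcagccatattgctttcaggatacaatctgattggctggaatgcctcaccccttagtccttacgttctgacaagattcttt
RefSeq promoter windows, from 250 bases before to 50 bases after a listed start, were found for 6 of the 7 genes. Hyal4 had no entry.

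The run shared by Spam1 and Hyal5 was 18 bases long, ACTTTGTGATGTCATCTG. It lay from -52 to -35 in Spam1 and from -91 to -74 in Hyal5, counted from the listed start of each. Between the end of the printed sequence and the listed start lie 60 further bases in Hyal5, where another annotated start comes earlier, and none in Spam1. Among 32851 promoter windows of the table, these 2 were the only ones that held it on either strand. The run was picked as the longest one that these 2 share, so its absence from the other windows is a description and tests nothing. For the other 14 pairs of the 6 promoters, the longest shared run in the 250 bases before the start was 6 to 9 bases. Over the whole 250 bases Spam1 and Hyal5 had an identity of 46.6% in a global alignment, within the 39.9% to 48.3% of the other pairs. Of those, only Hyal2 with Hyal3, at 48.3%, was higher. The run contains TGATGTCA, which was searched for after the run had been seen. On either strand (TGACATCA on the other) it stood in 3.62% of all promoter windows, and among the hyaluronidases in Spam1 and Hyal5 only. It differs by 1 letter from TGACGTCA, the cyclic AMP response element, which none of the 6 windows held and 1.79% of all windows did. A match of letters is a description and not a binding site.

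The promoter windows of the chromosome 6 and chromosome 9 genes differed in base composition. Spam1 and Hyal5 had 39.7% G and C with 0 CpG each, and Hyal6 had 36.0% with 2. Hyal2 had 58.3% with 18 CpG, Hyal1 57.0% with 8 and Hyal3 58.0% with 7. The medians over all windows were 52.7% and 7 CpG. GGGCGG, the letters of a GC box, was found in Hyal1, Hyal2 and Hyal3 on either strand and in none of the 3 windows of chromosome 6, against 35.7% of all windows. TATAAA was in none of the 6, against 13.6% of all. CCAAT, searched on both strands, was found in Hyal6 and Hyal1, 1 gene of each chromosome, against 37.4% of all windows.

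Transcripts of Hyal6, Hyal5 and Spam1 were above background and those of Hyal2, Hyal3 and Hyal4 were not called. Levels below are RMA values on the log2 scale, and 211 vomeronasal receptor and hair keratin associated protein genes, not expected in testis, set the background at 7.98, the 95th percentile of their means. That percentile was 6.92 for the 167 vomeronasal receptor genes alone and 8.68 for the 44 keratin associated protein genes alone. The means of Hyal2 and Hyal3 lay between these levels and were not tested against either. In a one-sided limma test adjusted over all genes by Benjamini-Hochberg, 3 of 6 measured members were above it, beside 36.6% of all named genes. Both sperm forms were among the 3, and so was Hyal6 alone of the 4 other measured forms. The signal of a probe set also depends on how well its probes bind, so levels of different genes were not tested against each other. In a cell mixture, fewer cells of a type and less RNA per cell cannot be told apart.

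**Figure D1:**
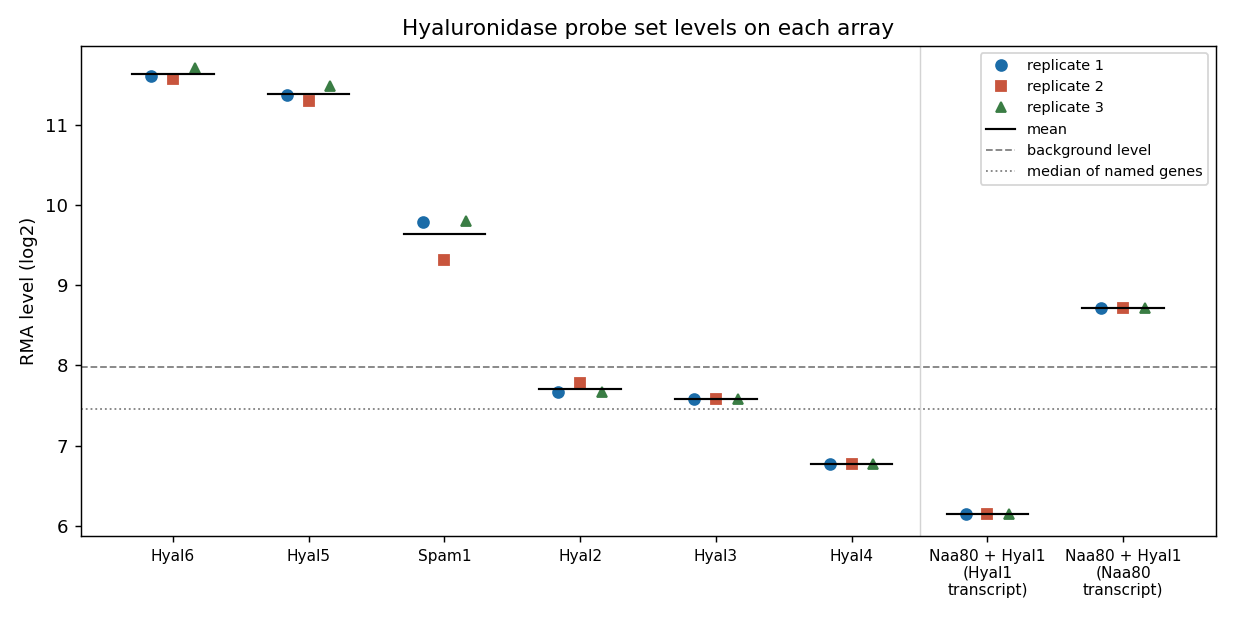
RMA level (log2) of each hyaluronidase probe set on each of the 3 arrays (points) with the mean (bar). The dashed line is the background level of 7.98 and the dotted line the median of all named genes, 7.45; Hyal6, Hyal5 and Spam1 lie above the dashed line on every array, and the 2 probe sets on the right name Naa80 and Hyal1 together.

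Spam1, a surface hyaluronidase of the sperm head, was at 9.79, 9.31 and 9.80 on replicates 1, 2 and 3. Replicate 2 was the low array and the other two were nearly equal. The mean was 9.64 ± 0.28 (SD, n = 3), which exceeded background by 1.65 (adjusted p = 0.00749, limma), and 84.4% of named genes had a lower mean. Its SD was larger than that of 99.3% of named genes. The call was lost without replicate 1 (adjusted p = 0.0817, limma) and without replicate 3 (adjusted p = 0.116, limma), and with the 99th percentile of those background genes, 9.16, as the level (0.47 above it, adjusted p = 0.187, limma), where 2 of 6 measured members were called beside 19.3% of all genes. All 3 arrays lay above both levels.

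Hyal5, the other sperm hyaluronidase, was at 11.37, 11.30 and 11.49 on replicates 1, 2 and 3. The arrays differed by at most 0.19, and the lowest was again replicate 2. The mean of 11.38 ± 0.10 (SD, n = 3) lay 3.40 above background (adjusted p = 0.000185, limma), and 97.4% of named genes had a lower mean. It was called with every array left out in turn and at the 99th percentile level.

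Hyal6, which the contrast places with the lysosomal and other forms, was above background as well. Its values were 11.62, 11.57 and 11.71 on replicates 1, 2 and 3, with a mean of 11.63 ± 0.07 (SD, n = 3). This was 3.65 above background (adjusted p = 8.45e-05, limma), and 98.2% of named genes had a lower mean. The arrays' ranges of Hyal6 and Hyal5 did not overlap, but they come from different probes. Whether the probes of Spam1, Hyal5 and Hyal6 also bind transcripts of the other two was not tested, since probe sequences were not used here.

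Hyal2, the GPI-anchored somatic enzyme, was at 7.67 on replicates 1 and 3 and at 7.78 on replicate 2. Its mean of 7.70 ± 0.06 (SD, n = 3) differed from the background level by -0.28 (adjusted p = 1, limma). Hyal3 was at 7.59 on all 3 arrays and Hyal4 at 6.78 on all 3. Tied values were common, since 46.0% of named genes had equal values on all arrays, and an SD of 0 is therefore no absence of error. Hyal2 and Hyal3 stood near the middle of all named genes, with 56.3% and 53.4% of genes lower, and Hyal4 in the lower part with 32.3%. When olfactory receptor genes set the level instead, at their 95th percentile of 7.18, Hyal2 and Hyal3 lay 0.52 and 0.40 above it and both were called, and 5 of 6 measured members were called beside 55% of all genes. Hyal4 was not called there either. A gene that was not called is thus not shown to be absent.

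Hyal1, the lysosomal enzyme, could not be read alone. The probe set whose accessions hold the RefSeq transcript of Hyal1 was at 6.15 on all 3 arrays. The other, whose accessions hold the transcript of the acetyltransferase gene Naa80, was at 8.72 on every array. Read as Hyal1, the first was not called (adjusted p = 1, limma), an assignment made after the annotation had been seen.

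**Figure D2:**
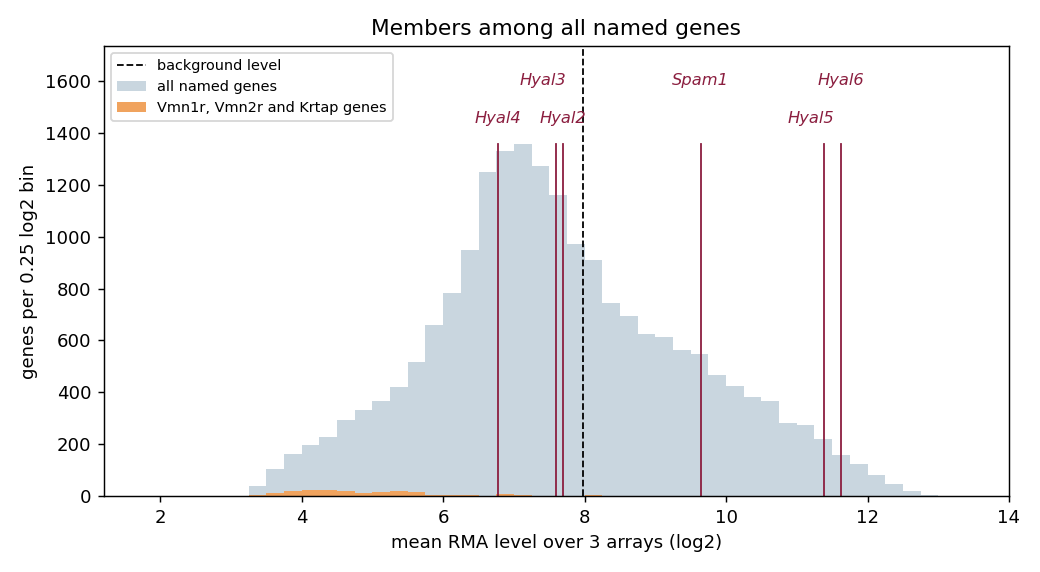
Number of named genes (grey) and of vomeronasal receptor and hair keratin associated protein genes (orange) per bin of mean RMA level (log2) over 3 arrays, with vertical lines at the 6 measured hyaluronidases. Hyal5 and Hyal6, at 11.38 and 11.63, stand in the upper tail, and Hyal2, Hyal3 and Hyal4 lie left of the background level of 7.98.

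The 3 members above background were lowest on replicate 2. The same held for 3449 of 10765 genes with untied values (32.0%). Among those with a mean above 10, which leaves out Spam1, it held for 1217 of 1825 (66.7%). It also held for 5 of 10 untied acrosome and sperm surface genes. Spam1 is also made by epithelium of the epididymis, the duct that carries sperm from the testis. None of 6 measured epididymis markers was called by limma after adjustment, and none had an unadjusted p under 0.05 or lay above the level on every array. Their list mean was 5.88, 6.18 and 6.33 on replicates 1, 2 and 3. Adam7, an epididymal membrane protein gene of that list, was at 5.28, 6.61 and 8.26, the widest spread of any named gene. On the arrays with the lowest and the highest Adam7 value, Spam1 was at 9.79 and 9.80, and the part of epididymal RNA in the Spam1 level was not tested. The lowest of the markers was Rnase10 at 4.90 on all 3 arrays.

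**Figure D3:**
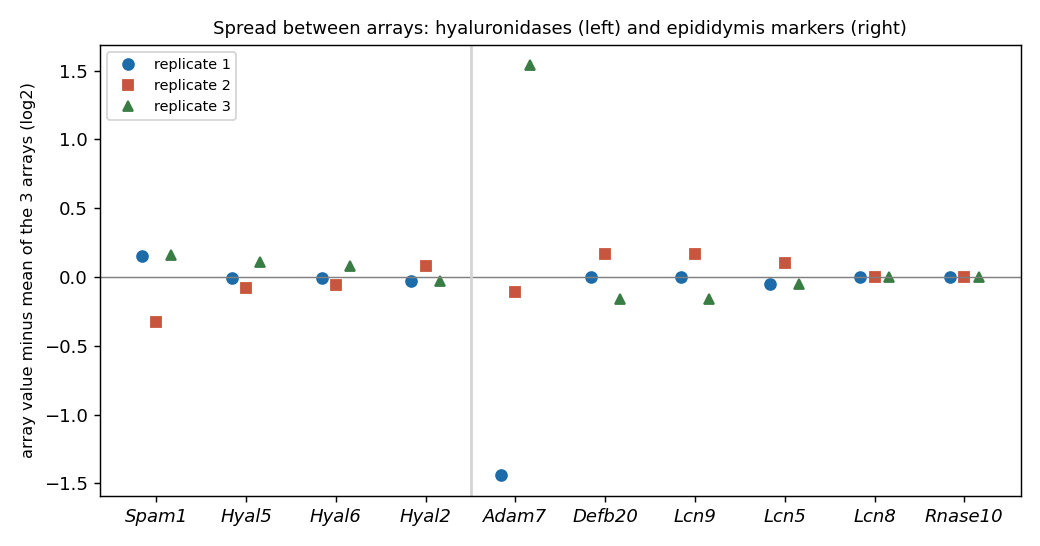
Difference of each array from the mean of the 3 arrays (log2) for 4 hyaluronidases on the left and the 6 measured epididymis markers on the right. Replicate 2 is lowest for Spam1, Hyal5 and Hyal6, while Adam7 is lowest on replicate 1 and highest on replicate 3.

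The neighbours of the genes gave a local comparison. On chromosome 6, Hyal6, Hyal4, Spam1 and Hyal5 follow each other in this order, and Hyal4 was not called between 3 genes that were. Of the 4 nearest measured genes on each side, 4 of 8 were above background, beside 36.6% of all named genes. These were Ndufa5, a respiratory chain subunit, at 10.33, Asb15 at 9.48, the actin regulator gene Wasl at 9.09, and Gpr37, a receptor gene, at 8.44 ± 0.03 (SD, n = 3). The gene just beyond Hyal5, Tmem229a, was at 6.46, Pot1a, a telomere protein gene, at 7.14 ± 0.02, the glutamate receptor gene Grm8 at 5.79 ± 0.11, and the leiomodin gene Lmod2 at 5.76 ± 0.02. On chromosome 9, where neither measured member was called, 5 of 8 neighbours were. The ciliary gene Zmynd10 was at 11.40, Gnai2, a G protein gene, at 9.72 ± 0.04, Ifrd2 at 8.49, Rassf1 at 8.28 and Nprl2 at 8.13 ± 0.01. Lsmem2 at 7.02 ± 0.13, Sema3b, a semaphorin gene, at 6.97 ± 0.04 and Gm9917 at 5.73 were not called. At the 99th percentile level 4 of these 16 neighbours were called, beside 19.3% of all genes. With counts this small, neither cluster's neighbours are read as differing from all genes.

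**Figure D4:**
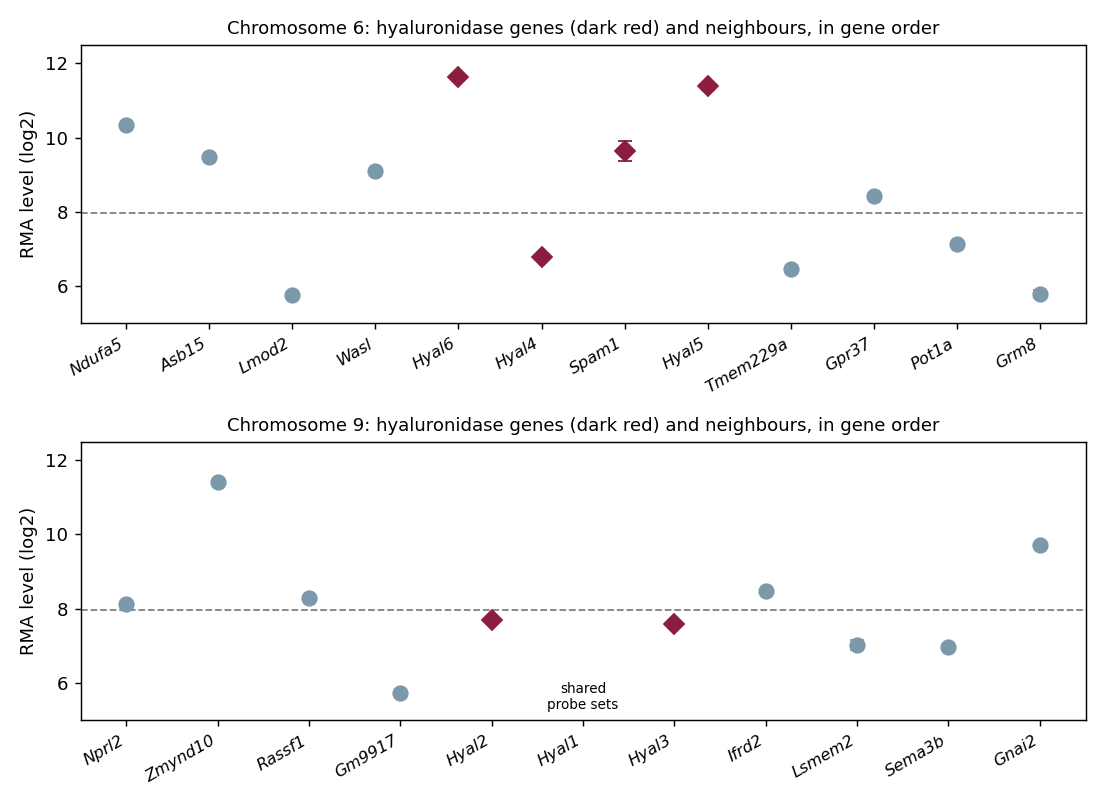
Mean RMA level (log2) with SD over 3 arrays (bars, often smaller than the symbol) for the hyaluronidase genes (diamonds) and their nearest measured neighbours (circles), by gene order on chromosomes 6 and 9. The dashed line is the background level of 7.98; Hyal4 at 6.78 stands below it between Hyal6 and Spam1.

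Genes that make hyaluronan were not called above background. None of the 3 synthase genes passed limma after adjustment, and none had an unadjusted p under 0.05 or lay above the level on every array. Has3 was at 6.54 ± 0.07 (SD, n = 3), Has1 at 5.91 and Has2 at 5.13. The median of 5.91 compares with 7.45 for all named genes. Of 7 genes that supply the sugar precursors 3 were above background, a share near the 36.6% of all named genes. They were Gfpt1, the entry enzyme of the hexosamine pathway, at 11.20, Ugp2 at 8.72 ± 0.08 and Uap1 at 8.63. The lowest were Ugdh, which makes UDP-glucuronic acid, at 7.55 and Gfpt2 at 7.27. This count of 3 was 1 at the 99th percentile level, beside 19.3% of all genes, and 7 with the olfactory receptor level, beside 55% of all genes.

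Receptors and matrix partners of hyaluronan were mostly not called, while 36.6% of all named genes were called. None of 6 receptor genes passed limma after adjustment, while 1 had an unadjusted p under 0.05 and 1 lay above the level on every array. Hmmr, the hyaluronan-mediated motility receptor and also a mitotic spindle protein, was highest at 8.32, 8.10 and 8.44 (adjusted p = 0.0924, limma), and Stab2 was at 7.35. The main surface receptor Cd44 was at 6.68 and Lyve1 at 6.39, with tied values. With dim genes, those not above the median of all named genes, left out of the test, 1 receptor gene remained. It was called, beside 7385 of the 9969 genes kept. With the olfactory receptor level 2 were, beside 55% of all genes. Of 15 binding proteins of matrix and cumulus 1 was called, Itih2, a heavy chain of the inter-alpha-trypsin inhibitor family that is linked to hyaluronan, at 9.15 ± 0.05 (SD, n = 3; adjusted p = 0.000451, limma). Ptx3, a cumulus matrix protein, was at 7.58, and the lowest were Acan at 6.28 and Hapln4 at 6.25 ± 0.23. The count of 1 of 15 was 0 at the 99th percentile level, beside 19.3% of all genes. It was 3 with the olfactory receptor level, beside 55% of all genes. The non-hyaluronidase depolymerising genes Cemip2 and Cemip were at 7.10 ± 0.01 and 6.51, and neither was called at an unadjusted p under 0.05 or on every array.

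Lysosomal enzymes that finish hyaluronan breakdown or act on other glycosaminoglycans were called about as often as all named genes (36.6%). Of 3 measured exoglycosidases Hexa, a hexosaminidase subunit, was at 9.16 and was called, while Gusb, the beta-glucuronidase, at 7.71 and Hexdc at 6.67 were not. With the olfactory receptor level 2 were called, beside 55% of all genes. Of 9 lysosomal enzymes of other glycosaminoglycans 3 were called, namely Hgsnat at 8.68, Glb1 at 8.35 and Arsb at 8.28 ± 0.01, and the lowest were Arsk at 7.01 and Galns at 6.87. That count was 0 at the 99th percentile level, beside 19.3% of all genes, and 5 with the olfactory receptor level, beside 55%.

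Genes of the acrosome and sperm surface, where the sperm hyaluronidases are found, were above background. This held for all 16 listed genes, with a median of 10.61, beside 36.6% of all named genes. Their count stayed at 16 with each replicate left out and was 14 at the 99th percentile level, beside 19.3% of all genes. Hyal5 and Hyal6 had higher means than the list median of 10.61 and Spam1 a lower one. Adam3 was at 12.49 ± 0.13 (SD, n = 3) and Spaca1 at 11.78 ± 0.03, and the lowest were Spaca4 at 8.90 ± 0.04 and Spaca3 at 8.83. Of the 5 subunits of the GPI transamidase, which attaches the anchor, Pigt was at 10.05 ± 0.01, Pigu at 9.33 ± 0.04, Pigk at 8.62 ± 0.18 and Pigs at 8.34 ± 0.05, all called, and Gpaa1 at 7.39 ± 0.01 was not. The count of 4 of 5, beside 36.6% of all named genes, was 2 without replicate 1 and 2 without replicate 2. Of all named genes 6662 and 7090 were called there, in place of 7295. The count was also 2 with probe sets of several genes added, where 6752 genes were called. The background level was higher in that setting, and Spam1, at an unchanged 9.64, lay 1.31 above it in place of 1.65. At the 99th percentile level the count was 2, beside 19.3% of all genes.

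**Figure D5:**
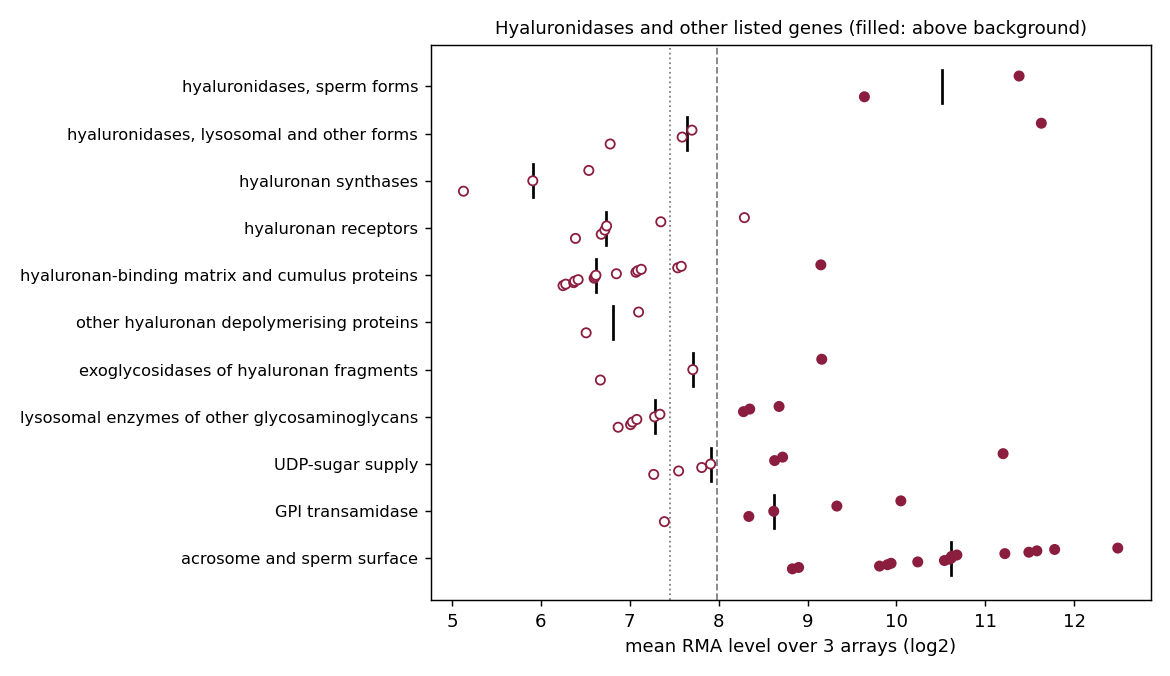
Mean RMA level (log2) of each measured gene of the hyaluronidase groups and of the other lists, filled where the gene was above background; bars are list medians, the dashed line is the background level of 7.98 and the dotted line the median of all named genes, 7.45. All 16 acrosome and sperm surface genes are filled, and none of the 3 synthases is.

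Markers of several testis cell types were measured. All 8 spermatid markers and all 6 spermatocyte markers were above background, with list means of 12.31 to 12.37 and 11.15 to 11.30 on the 3 arrays. The spermatid markers were led by the protamine genes Prm2 and Prm1. Of spermatogonia markers 1 of 7 was called, of Sertoli cell markers 5 of 9, of Leydig cell markers 6 of 7, of peritubular, endothelial and stromal markers 4 of 10, and of macrophage and blood markers 3 of 8, beside 36.6% of all named genes. The list means ranged over the arrays from 8.28 to 8.29 for Sertoli and from 9.80 to 9.92 for Leydig cells. The part of these cells in the levels of Hyal2, Hyal3 and Hexa was not tested.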

How the data were processed

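The authors deposited log2 levels per probe set, with 1 column for each of 3 arrays. Per the series' design text, the authors corrected and summarised the probes by RMA (Robust Multichip Average) with Affymetrix Power Tools, of a version not given in the sources used here, and annotation on mm9. Scanner files were not used here. Of 35556 probe sets 21789 named 1 gene and 1621 several, and 12146 were unnamed. Symbols were updated by Entrez identifier to GRCm38.p6 (21698 matched). Probe sets naming the same single gene were combined by their median. limma 3.58.1 in R 4.3.3 tested each mean against the background level (intercept only, empirical Bayes variances, one-sided), with Benjamini-Hochberg adjustment over 19938 genes at 0.05. The test was also run on simulated data with SDs drawn from untied genes only. That run does not check the p-values of tied genes. The number of arrays limits the precision. The genes and lists were chosen with earlier results of these data known. Named are all 7 members, all neighbours, and the 2 highest and 2 lowest genes of each other list of hyaluronan or sperm genes (all of lists of 5 or fewer). Arsb, Uap1 and single markers were added after their values had been seen. Promoters came from RefSeq; positions are relative to the listed start.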

Additional observations from a re-analysis of the deposited data

How the results depend on the processing

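The background level had the largest effect on the counts. With the level at the 99th percentile of those families, 3847 genes were called in place of 7295, and 4 neighbours in place of 9. Of the other hyaluronan, anchor and sperm genes 18 were called in place of 28. Acrosome and sperm surface genes made up 14 of those 18 and 16 of those 28. With the olfactory receptor level the counts were 10958 genes and 5 members in place of 3, since Hyal2 (0.52 above the level, adjusted p = 0.00261, limma) and Hyal3 (0.40 above, adjusted p = 5.38e-10, limma) turned to the other side. The values of Hyal3 were tied on all 3 arrays, so its small p rests on no measured spread. Spam1 lost its call in 3 settings, given with its values. Hyal5 and Hyal6 were called in every setting run for them, and Hyal4 in none. The count of members was 2 to 3 with 1 array left out and 3 with the highest probe set, probe sets of several genes added, every array above the level, a variance trend, dim genes left out or the Hyal1 transcript probe set added after seeing the annotation. Without 1 array, 6662 to 7090 genes were called. With dim genes left out, Hyal4 was not tested, and 7385 of the 9969 genes kept were called. Centring each array leaves a mean over all 3 arrays as it is by construction, so it says nothing about the members' levels. No paired analysis was possible because all samples belong to 1 group. Without scanner files, signal over local background could not be set per probe.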

Other observations

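The genes with the widest spread between the arrays, picked after their values had been seen, included several that are known from the epididymis and lay in the same order on the 3 arrays as Adam7. Spink8, a protease inhibitor gene, was at 7.37, 8.68 and 10.23 on replicates 1, 2 and 3, and Cd52, a surface glycoprotein gene that is also active in lymphocytes, at 5.74, 7.13 and 8.44. Defb28, a defensin gene, was at 5.86, 6.34 and 7.06. In the same ranking Fabp4, a fatty acid binding protein of fat cells and vessels, was at 8.35, 6.95 and 8.20, lowest on replicate 2, while Gm9833 at 4.61, 5.25 and 4.08 was highest there, as was Ephx2, an epoxide hydrolase gene, at 7.16.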
